A study of Mus musculus with 6 samples.

Results

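The 7 genes described here encode the cyclin-dependent kinase inhibitors of the mouse. They were taken by gene symbol from a count table of 24062 genes, and all 7 were found and passed the filter on low counts, which left 13990 genes. Of these, 3 belong to the CIP/KIP family, Cdkn1a (p21), Cdkn1b (p27) and Cdkn1c (p57), and 4 to the INK4 family, Cdkn2a (p16 and, in another reading frame, ARF), Cdkn2b (p15), Cdkn2c (p18) and Cdkn2d (p19). RNA was sequenced from C57BL/6 mouse embryonic fibroblasts, which are collagen-producing cells cultured from embryos. In 3 samples, called p27OE, the cells had received p27 by lentivirus, and RNA was taken at day 10 after p27 overexpression. The other 3 samples, called EV control, are labelled day 10 as well, and the labels do not spell out EV. Only the EV control titles name a dataset, and whether the groups were prepared together is not stated. Neither the promoter that drives the lentiviral p27 nor the species of its coding sequence is given. The p27OE titles and the treatment protocol call the p27OE cells senescent, and the series text calls them non-senescent.

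Cyclin-dependent kinases drive the cell cycle once a cyclin has bound them. INK4 proteins bind Cdk4 and Cdk6 and keep D-type cyclins from activating them, while CIP/KIP proteins bind complexes of cyclin and kinase and mainly block Cdk2. Both routes keep the retinoblastoma family active and E2F factors silent, and cultured fibroblasts are known to accumulate p16, ARF, p15 and p21 when they stop dividing for good.

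Library totals lay between 39183624 and 61219345 counts. The libraries differed within both groups in sex-chromosome transcripts. The summed level of the Y-linked genes Ddx3y, Eif2s3y, Kdm5d and Uty was 1.95, 57.1 and 137 CPM (counts scaled to a common library size with TMM factors) in p27OE 1, 2 and 3, and 0.125, 126 and 124 CPM in EV control 1, 2 and 3. EV control 1 therefore stood apart from the other EV control libraries, while in p27OE the level differed in every library, with p27OE 2 between the others. Xist, an RNA of the X chromosome, had 330, 164 and 0.457 CPM in p27OE 1, 2 and 3. In EV control 1, 2 and 3 it had 407, 5.67 and 0.680 CPM. For the 7 genes, estimates are also given without both libraries numbered 1 and from a model that fits the Y-linked level beside the group, called the Y-adjusted model. The 10 fibroblast markers summed to between 45521 and 47801 CPM in p27OE and between 41155 and 59331 CPM in EV control, most of it from collagen and fibronectin genes and Vim. Of them, Dcn had 92.7, 25.2 and 8.43 CPM in p27OE 1, 2 and 3 against 76.1, 11.2 and 8.27 CPM in EV control 1, 2 and 3, and Lum had 85.4, 24.8 and 4.18 CPM in p27OE against 77.6, 10.2 and 8.71 CPM in EV control. The 6 epithelial markers summed to between 23.0 and 34.5 CPM in p27OE and between 16.5 and 40.4 CPM in EV control, mostly from Krt19, with Epcam at most 0.123 CPM in p27OE and 0.132 CPM in EV control. The 6 endothelial markers summed to between 4.30 and 7.73 CPM in p27OE and between 3.32 and 3.93 CPM in EV control, with Pecam1 at most 0.144 CPM in p27OE and 0.175 CPM in EV control. Tek had 6.49, 3.36 and 1.51 CPM in p27OE against 2.38, 0.992 and 1.03 CPM in EV control. The part of these cell types in the inhibitor values was not tested. In these bulk samples, fewer cells that express a gene and less RNA per cell cannot be told apart.

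Cdkn1b, the gene of p27 itself, rose in p27OE cells, and it was the 1 gene of the 7 that passed the test in the model with the group alone. It had 167, 232 and 337 CPM in p27OE 1, 2 and 3, against 43.9, 31.5 and 32.3 CPM in EV control 1, 2 and 3. Every p27OE library lay above every EV control library, and the p27OE libraries differed among themselves by more than the EV control libraries did. The means were 245 ± 85.9 CPM in p27OE and 35.9 ± 6.93 CPM in EV control (SD, n = 3 each). This was a log2 fold change of 2.77 ± 0.29 (SE; edgeR quasi-likelihood test, adjusted p = 0.0280), and 13 of the 13990 genes tested had a higher one. In that test 365 genes were called at an adjusted p under 0.05, which is 2.61% of those tested (1.77% higher and 0.843% lower). Without EV control 1 the adjusted p was 0.0201. The call was lost without p27OE 1 (adjusted p = 0.0563), p27OE 2 (0.154), p27OE 3 (0.0594), EV control 2 (0.183) or EV control 3 (0.189, edgeR), where the log2 fold change lay between 2.48 and 2.97.

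The size of the Cdkn1b difference varied with the library and with the control it was set against. On the log2 CPM scale, p27OE 1 lay 1.92 above EV control 1. EV control 1 itself lay 0.46 above the mean of EV control 2 and 3. Set against that mean, p27OE 2 lay 2.86 above and p27OE 3 lay 3.40 above. Without both libraries numbered 1 the estimate for the group was 3.14 ± 0.19 on the log2 scale (SE; edgeR adjusted p = 0.0195), and in the Y-adjusted model it was 2.77 ± 0.25 (adjusted p = 0.000804). Cdkn1b occupies 134920401 to 134925513 of chromosome 6, plus strand (GRCm38), with 2 exon blocks of 4552 bases in all. None of its annotated stretches of 50 bases occurs in a transcript of another gene. The count cannot separate transcripts of the chromosomal gene from those of the lentivirus. The nearest tested gene on the side of lower coordinates, 2810454H06Rik, lies 19.3 kilobases away and was at −0.81 ± 0.77 on the log2 scale (SE; edgeR adjusted p = 0.550). On the other side Apold1, 56.2 kilobases away, was at −0.65 ± 0.50 (edgeR adjusted p = 0.466). Both had at most 80 counts in any library.

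Promoter sequences are shown for Cdkn1a, Cdkn1b and Cdkn2a, which are known to be driven by different factors. These genes were higher in every p27OE library, as was Cdkn2b, whose window is not printed. The Cdkn1b window is that of the chromosomal gene, and the Cdkn1b count may also hold transcripts of the lentivirus. The part of these promoters in the differences was not tested. The windows run from 250 bases before to 50 bases after each start, are taken from RefSeq (GRCm38.p6), and were found for 6 of the 7 genes. Capitals mark matches, on either strand, to CATG, any 6 bases and CATG again (a pair of p53 half-site cores), TTTNNCGC (an E2F-type site) or GGGCGG (a GC box, bound by Sp1), and no match overlapped another. These motifs occur in 0.712%, 5.17% and 35.7% of 32851 mouse promoter windows of the same length. The windows are the upstream start of Cdkn1a at chr17:29090729-29091028 (plus strand), Cdkn1b at chr6:134920151-134920450 (plus strand), the ARF start of Cdkn2a at chr4:89294570-89294869 (minus strand) and the p16 start of Cdkn2a at chr4:89282143-89282442 (minus strand).
Cdkn1a upstream start: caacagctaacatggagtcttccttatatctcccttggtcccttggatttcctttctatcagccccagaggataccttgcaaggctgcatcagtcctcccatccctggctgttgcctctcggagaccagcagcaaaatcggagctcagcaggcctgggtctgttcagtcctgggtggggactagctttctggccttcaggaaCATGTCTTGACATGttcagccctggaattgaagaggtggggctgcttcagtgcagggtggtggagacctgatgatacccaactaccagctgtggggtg
Cdkn1b: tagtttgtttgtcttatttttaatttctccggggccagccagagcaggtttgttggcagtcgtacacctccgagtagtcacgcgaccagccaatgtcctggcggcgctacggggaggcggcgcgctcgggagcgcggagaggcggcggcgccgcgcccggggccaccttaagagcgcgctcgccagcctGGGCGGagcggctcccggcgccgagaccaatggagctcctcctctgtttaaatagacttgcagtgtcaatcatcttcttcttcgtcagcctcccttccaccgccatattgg
Cdkn2a ARF start: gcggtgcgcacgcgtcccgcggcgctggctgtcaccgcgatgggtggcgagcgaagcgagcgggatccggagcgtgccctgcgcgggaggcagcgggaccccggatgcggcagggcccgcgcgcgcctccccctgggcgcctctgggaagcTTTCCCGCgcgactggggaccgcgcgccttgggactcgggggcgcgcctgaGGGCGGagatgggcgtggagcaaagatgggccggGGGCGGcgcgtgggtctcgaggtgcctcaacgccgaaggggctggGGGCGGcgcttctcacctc
Cdkn2a p16 start: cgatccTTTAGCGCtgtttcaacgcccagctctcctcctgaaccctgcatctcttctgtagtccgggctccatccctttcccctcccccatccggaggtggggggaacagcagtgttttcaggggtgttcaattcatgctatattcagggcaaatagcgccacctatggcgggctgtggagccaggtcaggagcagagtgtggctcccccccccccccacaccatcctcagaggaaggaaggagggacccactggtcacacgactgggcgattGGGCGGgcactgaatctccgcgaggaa
The p53-type pair was at bases 203 to 216 of the upstream Cdkn1a window and in no other window of these genes. A further Cdkn1a window, chr17:29093519-29093818, is not shown. It had GC boxes at bases 147 to 152 and 205 to 210. The E2F-type motif was at bases 152 to 159 of the ARF window and bases 7 to 14 of the p16 window, and in no window of the other genes. The Cdkn2b window held 1 GC box and the Cdkn2d window 5. The Cdkn2c window at chr4:109666707-109667006 had GC boxes at bases 156 to 161, 200 to 205, 211 to 216 and 287 to 292. A match is a description of the letters and not a site shown to be bound.

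**Figure D1:**
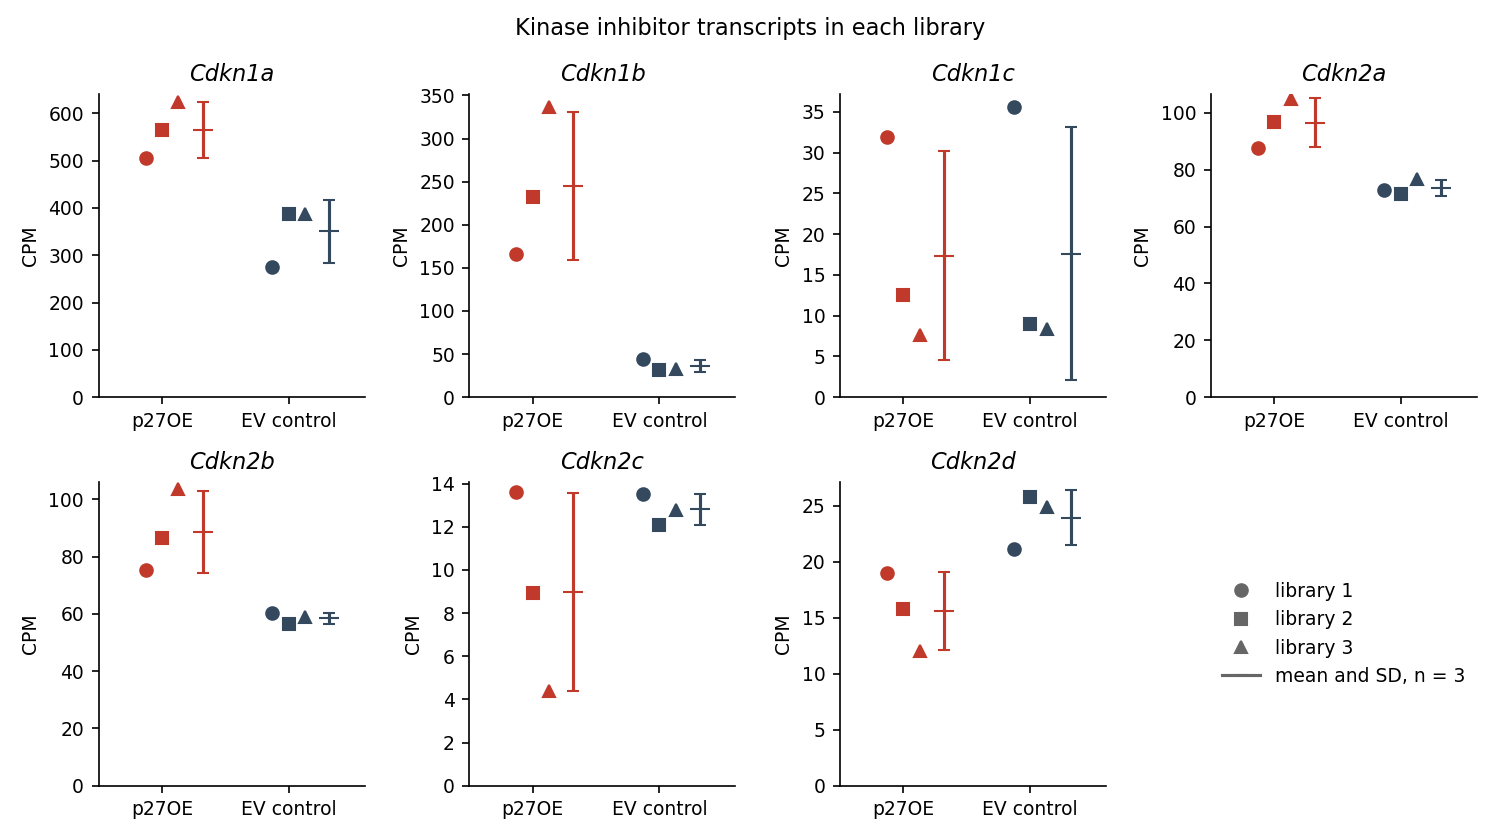
Level of each inhibitor gene in CPM (vertical axes, starting at 0) in the 3 p27OE and the 3 EV control libraries, with the mean and SD of each group beside the points. Cdkn1b, Cdkn1a, Cdkn2a and Cdkn2b lie higher in every p27OE library and Cdkn2d lies lower, while Cdkn1c is high in library 1 of both groups, at 31.9 CPM in p27OE 1 and 35.6 CPM in EV control 1.

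Cdkn1a encodes p21, the inhibitor that p53 induces after DNA damage. It had 506, 565 and 624 CPM in p27OE 1, 2 and 3, against 274, 388 and 388 CPM in EV control 1, 2 and 3. The groups did not overlap, and EV control 1 was the lowest library. On the log2 scale the difference was 0.69 ± 0.16 (SE), or 1.61-fold, and it did not pass (edgeR adjusted p = 0.0675). It passed without EV control 1 (0.53 ± 0.10; edgeR adjusted p = 0.0351), without both libraries numbered 1 (0.60 ± 0.08; adjusted p = 0.0243) and in the Y-adjusted model (0.76 ± 0.06; adjusted p = 0.000477). Cdkn1a is on chromosome 17, 29090976 to 29100727, plus strand. An unnamed transcript unit on the opposite strand, AC167363.2, overlaps 7.68% of its exon bases and is not a row of the table. The neighbouring long noncoding RNA gene Trp53cor1, 11.8 kilobases away, which p53 is also known to induce, had 4.87, 2.81 and 2.88 CPM in p27OE against 2.58, 1.16 and 1.54 CPM in EV control, with a log2 fold change of 1.01 ± 0.38 that did not pass (edgeR adjusted p = 0.158). On the other side Ppil1, 150.1 kilobases away, was at −0.42 ± 0.10 (edgeR adjusted p = 0.0712).

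Cdkn1c encodes p57, an inhibitor of embryonic growth that is imprinted and expressed from the maternal allele. Its values differed far more between libraries than between groups. It had 31.9, 12.5 and 7.64 CPM in p27OE 1, 2 and 3, against 35.6, 8.93 and 8.36 CPM in EV control 1, 2 and 3. Library 1 was the highest in both groups, and the groups overlapped. Its estimate was −0.02 ± 0.74 on the log2 scale (SE; edgeR adjusted p = 0.990). On the log2 CPM scale p27OE 1 exceeded p27OE 3 by 2.05, and EV control 1 exceeded the mean of EV control 2 and 3 by 2.04. In the Y-adjusted model the standard error was 0.15 in place of 0.74, and the log2 fold change of −0.21 did not pass (edgeR adjusted p = 0.291). The sign was not stable: without both libraries numbered 1 it was 0.21 ± 0.25. The antisense gene Gm44732 overlaps 30.65% of its exon bases (chromosome 7, 143458339 to 143461050). Since the strand setting of the counting is not given, reads of the 2 cannot be told apart in that stretch.

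Several imprinted genes of embryonic growth were also highest in library 1 of both groups. Mest, a paternally expressed gene, had 519, 144 and 35.3 CPM in p27OE 1, 2 and 3, against 314, 24.6 and 30.3 CPM in EV control 1, 2 and 3. The growth factor gene Igf2 had 3017, 1660 and 825 CPM in p27OE, against 2339, 524 and 595 CPM in EV control. H19, the maternally expressed RNA beside Igf2, had 3387, 1491 and 560 CPM in p27OE, against 2978, 594 and 762 CPM in EV control. In 9 of the 15 imprinted genes tested, or 60.0%, library 1 was the highest of both groups, and this held for 28.0% of all genes tested. The libraries numbered 1 also had the lowest Y-linked level, and the part of that level in the Cdkn1c values was not tested beyond the model above. In the group comparison 0 of the 15 passed with edgeR (2.61% of all genes) or limma-voom (418 of all 13990 genes). DESeq2 called 2 of the 15 (16.6% of all genes), and 3 had an unadjusted edgeR p under 0.05, which 26.0% of all genes had. In the Y-adjusted model 6 of the 15 rose and 0 fell, where 18.0% of all genes rose, and without both libraries numbered 1 it was 2 that rose and 0 that fell, where 7.81% rose. Their median log2 fold change was 0.32, against 0.01 over all genes tested. Higher values in every p27OE library were seen for 5 of the 15 and lower ones for 0, against 16.8% and 16.5% of all genes. Within the Cdkn1c domain of chromosome 7, Slc22a18, 12.7 kilobases from Cdkn1c, was low, with 3.94, 2.30 and 1.73 CPM in p27OE against 1.55, 0.496 and 0.439 CPM in EV control. Its log2 fold change was 1.69 ± 0.58 (edgeR adjusted p = 0.134), and 1.598 in the Y-adjusted model (adjusted p = 0.00346). Cd81 was at 414 ± 12.9 CPM in p27OE and 332 ± 18.9 CPM in EV control (SD, n = 3 each; log2 fold change 0.32 ± 0.08, SE; edgeR adjusted p = 0.0719), and its Y-adjusted estimate was 0.34 (adjusted p = 0.00227).

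**Figure D2:**
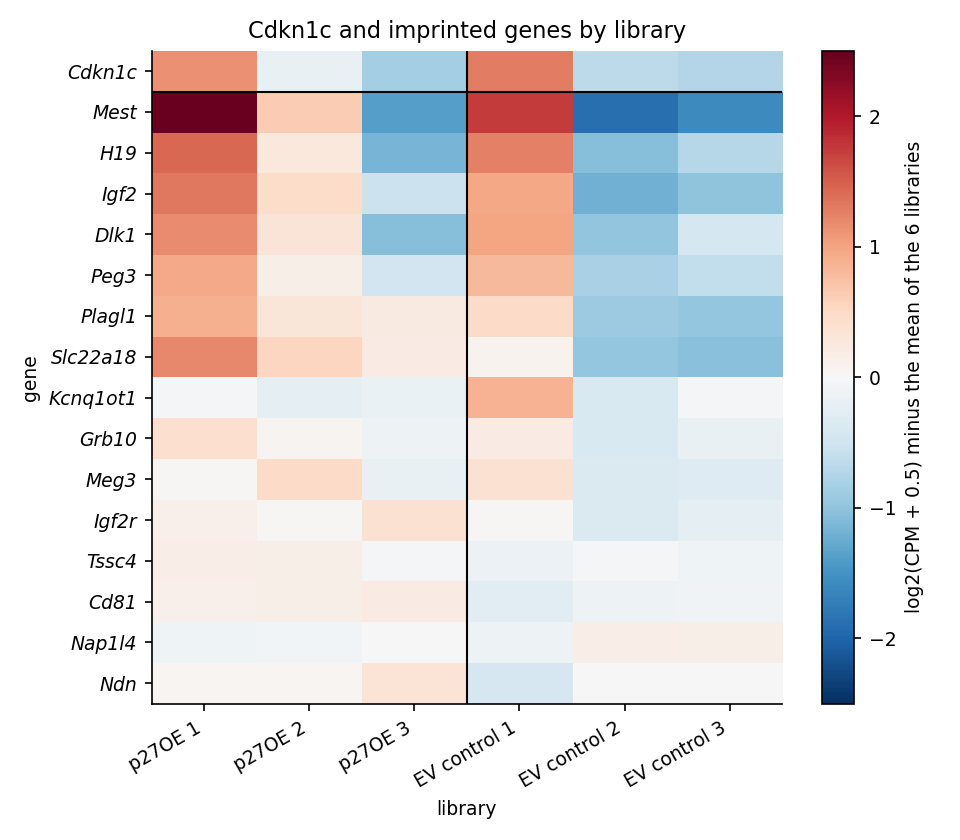
Colour gives log2(CPM + 0.5) of each gene minus its mean over the 6 libraries, for Cdkn1c in the top row and the 15 tested imprinted genes below, with p27OE libraries left of the line and EV control libraries right of it. Cdkn1c, Mest, H19, Igf2, Dlk1 and Peg3 are high in library 1 of both groups, and p27OE 2 lies between p27OE 1 and p27OE 3 for each of these.

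Cdkn2a and Cdkn2b lie side by side on chromosome 4, with 11.6 kilobases between them. Cdkn2a, which makes p16 and ARF from separate starts, had 87.7, 96.8 and 105 CPM in p27OE 1, 2 and 3, against 72.9, 71.4 and 76.8 CPM in EV control 1, 2 and 3. The lowest p27OE library was above the highest EV control library. Cdkn2a differed by 0.39 ± 0.08 on the log2 scale (SE), or 1.31-fold, and did not pass (edgeR adjusted p = 0.0627). The deposited count joins the 2 products: of the exon bases, 575 are shared, 277 belong to the p16 transcript alone and 320 to the ARF transcript alone. Cdkn2b, which encodes p15, an inhibitor that TGF-beta is known to induce, had 75.5, 86.5 and 104 CPM in p27OE, against 60.2, 56.4 and 59.04 CPM in EV control. These groups did not overlap either, and the EV control libraries lay close together. For Cdkn2b the log2 fold change was 0.60 ± 0.12 (SE), or 1.51-fold, and it did not pass (edgeR adjusted p = 0.0548). Both genes passed in the Y-adjusted model, Cdkn2a at 0.40 ± 0.06 and Cdkn2b at 0.61 ± 0.09 (edgeR adjusted p = 0.00409 for each), and without both libraries numbered 1 (0.43 ± 0.08, adjusted p = 0.0306, and 0.70 ± 0.10, adjusted p = 0.0250). The next tested gene, Mtap, 93.4 kilobases from Cdkn2a, was at −0.15 ± 0.16 (edgeR adjusted p = 0.614), and its groups overlapped. Cdkn2a spans 89274471 to 89294653 and Cdkn2b 89306299 to 89311039, both on the minus strand.

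Cdkn2c and Cdkn2d, which encode p18 and p19, had lower means in p27OE. Cdkn2d had 19.0004, 15.7 and 12.0 CPM in p27OE 1, 2 and 3, against 21.2, 25.8 and 24.9 CPM in EV control 1, 2 and 3. The groups did not overlap. Cdkn2d was at −0.62 ± 0.18 on the log2 scale (SE; edgeR adjusted p = 0.0937), and it passed without both libraries numbered 1 (−0.88 ± 0.15; adjusted p = 0.0289) and in the Y-adjusted model (−0.66 ± 0.16; adjusted p = 0.0208). Cdkn2c had 13.6, 8.92 and 4.40 CPM in p27OE, against 13.5, 12.1 and 12.8 CPM in EV control. The EV control libraries were nearly level, p27OE 1 lay with them, and the other p27OE libraries lay below. Cdkn2c was at −0.51 ± 0.37 on the log2 scale (SE; edgeR adjusted p = 0.433), and it did not pass in the Y-adjusted model (−0.73 ± 0.25; adjusted p = 0.0608) or without both libraries numbered 1 (−0.91 ± 0.33; adjusted p = 0.117). Cdkn2c is on chromosome 4, 109660876 to 109667189, and Cdkn2d on chromosome 9, 21288410 to 21291407, both on the minus strand. Their nearest tested neighbours did not pass: Rnf11 and Faf1 beside Cdkn2c were at 0.31 ± 0.15 and −0.05 ± 0.08, and Kri1 and Slc44a2 beside Cdkn2d at −0.19 ± 0.10 and 0.03 ± 0.09 (edgeR adjusted p from 0.239 to 0.886). The smallest count behind any value of the 7 genes was 183, for Cdkn2c in p27OE 3, and the largest was 27550.

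Across the 7 genes, 4 had higher values in every p27OE library than in any EV control library, 1 had lower values in every p27OE library, and 2 overlapped. Among all genes tested, 33.3% did not overlap, 16.8% higher and 16.5% lower. In the Y-adjusted model, 4 of the 7 genes rose and 1 fell, where 34.0% of all genes were called, 18.0% higher and 16.0% lower. Without both libraries numbered 1 it was again Cdkn1a, Cdkn1b, Cdkn2a and Cdkn2b that rose and Cdkn2d that fell, where 16.7% of all genes were called (7.81% higher and 8.9% lower). The same 5 genes were called by DESeq2, which called 16.6% of all genes (8.18% higher and 8.41% lower), and with the replicate number as a block, which called 17.2% (9.23% higher and 8.0% lower). Without EV control 1, Cdkn1a, Cdkn1b and Cdkn2b rose and 0 of the 7 fell, where 12.9% of all genes were called (6.13% higher and 6.75% lower). With any other single library left out, 0 of the 7 passed, and at most 2 of all genes did. The p27OE library with the most Cdkn1b, p27OE 3, also had the most Cdkn1a, Cdkn2a and Cdkn2b of the p27OE libraries and the least Cdkn1c, Cdkn2c and Cdkn2d. It was also the p27OE library with the highest Y-linked level. In EV control the library with the most Cdkn1b, EV control 1, had the lowest Y-linked level and the least Cdkn1a.

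**Figure D3:**
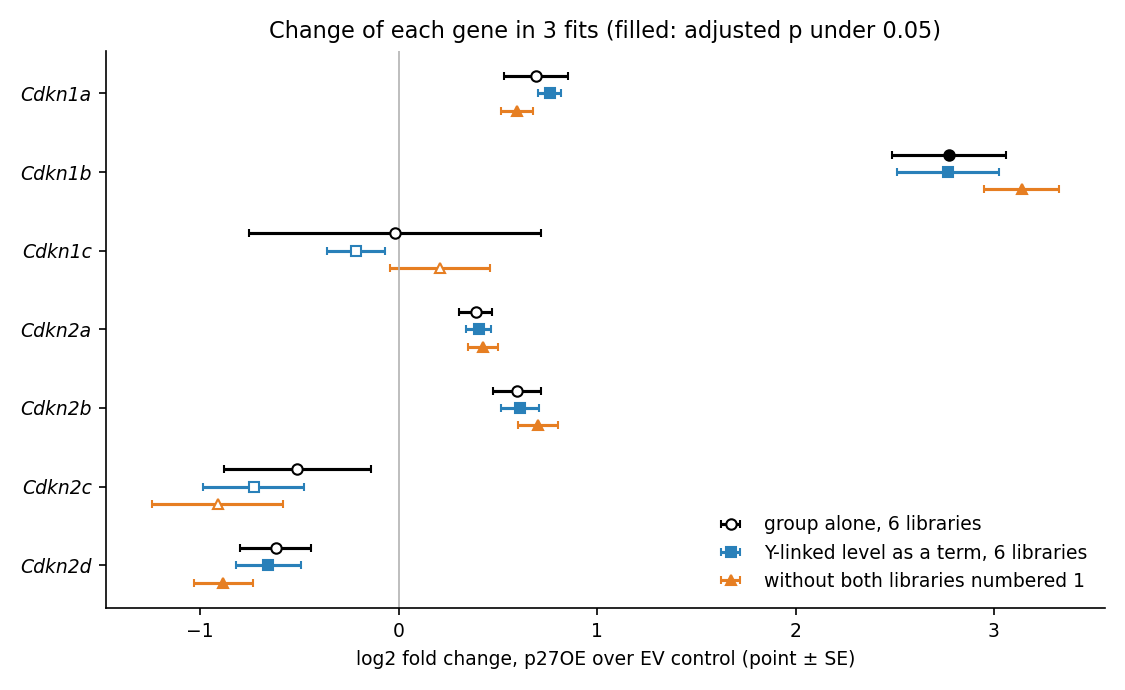
Log2 fold change of each gene, p27OE over EV control, with its SE, in the model with the group alone, in the Y-adjusted model (Y-linked level as a term), and without both libraries numbered 1. Filled points have an adjusted p under 0.05, which holds for Cdkn1b in all 3 fits and for Cdkn1a, Cdkn2a, Cdkn2b and Cdkn2d in the other 2.

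To compare levels between genes, CPM was divided by the length of the annotated exons in kilobases. In p27OE, Cdkn1a was the highest at 159 ± 16.6 CPM per kilobase, followed by Cdkn2a at 82.3 ± 7.36, Cdkn2b at 63.7 ± 10.2 and Cdkn1b at 53.9 ± 18.9 (SD, n = 3 each). Cdkn2d at 9.90 ± 2.23, Cdkn1c at 8.51 ± 6.29 and Cdkn2c at 3.34 ± 1.72 CPM per kilobase were far lower. In EV control the order was Cdkn1a at 98.5 ± 18.5 CPM per kilobase, Cdkn2a at 62.9 ± 2.39, Cdkn2b at 42.1 ± 1.39, Cdkn2d at 15.2 ± 1.56, Cdkn1c at 8.64 ± 7.63, Cdkn1b at 7.88 ± 1.52 and Cdkn2c at 4.77 ± 0.265 (SD, n = 3 each). In p27OE the libraries of Cdkn2b and Cdkn1b overlapped, as did those of Cdkn2d and Cdkn1c and those of Cdkn1c and Cdkn2c. In EV control those of Cdkn2d and Cdkn1c and those of Cdkn1c and Cdkn1b overlapped, and the other neighbours in the order did not. Cdkn1b was thus at rank 4 of the 7 genes in p27OE and at rank 6 in EV control. If the lentivirus carries only the coding part of Cdkn1b, division by all exon bases understates its level per length. Its place in the order in p27OE could then be higher.

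With CPM divided by all exon bases, Cdkn1b stayed below Cdkn1a even in p27OE. If the lentivirus carries only the coding part, this order, the ratios and the shares could differ, which was not tested. The ratio of Cdkn1b to Cdkn1a, each per kilobase, was 0.257, 0.321 and 0.421 in p27OE 1, 2 and 3, against 0.125, 0.0633 and 0.0649 in EV control 1, 2 and 3. Cdkn1b made up 10.7%, 13.6% and 17.3% of the summed level of the 7 genes in p27OE, against 4.22%, 2.85% and 2.85% in EV control. The summed level of the 7 genes was 341, 374 and 427 CPM per kilobase in p27OE, against 228, 243 and 249 CPM per kilobase in EV control. CIP/KIP genes made up 57.1%, 57.8% and 59.4% of that sum in p27OE, against 45.7%, 49.6% and 48.4% in EV control. The sum and this share include Cdkn1b, and p27 was supplied by lentivirus. Part of each difference may therefore follow from the design. The INK4 genes alone summed to 146, 158 and 173 CPM per kilobase in p27OE 1, 2 and 3. In EV control 1, 2 and 3 they summed to 124, 122 and 129 CPM per kilobase.

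**Figure D4:**
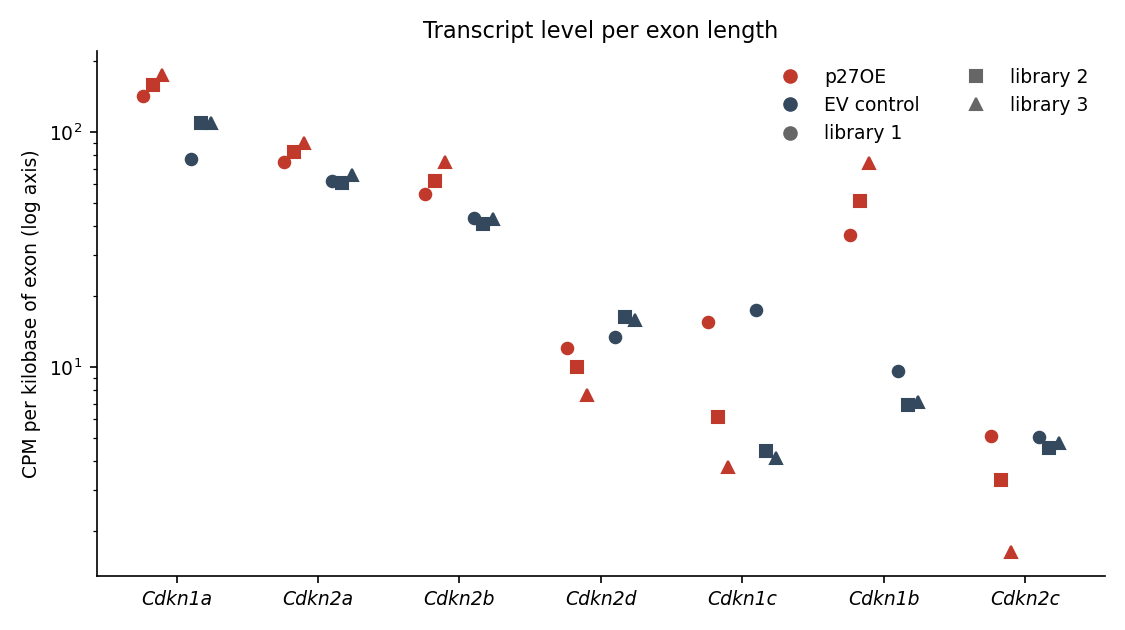
CPM per kilobase of exon (log axis) of each inhibitor gene in each library, ordered by the EV control mean. On this scale Cdkn1a, Cdkn2a and Cdkn2b lead in both groups, and Cdkn1b lies between 36.6 and 74.0 CPM per kilobase in p27OE, against 6.91 to 9.63 in EV control.

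The targets of these inhibitors, cyclins and their kinases, are described next. Of 13 such genes, 2 rose and 0 fell with edgeR (1.77% and 0.843% of all genes). Limma-voom also called 2 (418 of all 13990 genes). Their median log2 fold change was −0.44, against 0.01 over all genes tested. DESeq2 called 7 of the 13 (16.6% of all genes), and 7 had an unadjusted edgeR p under 0.05 (26.0% of all genes). Of the 13, 2 had higher values in every p27OE library and 6 had lower ones, as did 16.8% and 16.5% of all genes. The lowest log2 fold change was that of Ccna2, at −1.07 ± 0.25 (SE; edgeR adjusted p = 0.0675). Ccnd2, which encodes cyclin D2, had 1118, 1211 and 1335 CPM in p27OE against 678, 716 and 747 CPM in EV control (log2 fold change 0.77 ± 0.10, SE; edgeR adjusted p = 0.0303). Ccnd1, which encodes cyclin D1, rose as well, by 0.74 ± 0.13 (edgeR adjusted p = 0.0450). Both calls were lost without any 1 of p27OE 1, 2 or 3 or EV control 2 or 3, where 0 of the 13 genes passed. The groups of Cdk4 and Cdk2, kinases bound by INK4 and CIP/KIP proteins, did not overlap: Cdk4 had 343, 324 and 294 CPM in p27OE against 365, 366 and 365 CPM in EV control, and Cdk2 had 34.1, 36.0 and 30.1 CPM in p27OE against 44.6, 52.3 and 46.7 CPM in EV control. Neither passed (edgeR adjusted p = 0.211 and 0.0518). Cdk6 was at 8.56 ± 1.64 CPM in p27OE and 8.10 ± 0.62 CPM in EV control (SD, n = 3 each). In the Y-adjusted model, 2 of the 13 genes rose and 6 fell, where 18.0% of all genes rose and 16.0% fell.

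Of 13 pocket protein and E2F genes, the next step of the pathway, 0 passed in either direction with edgeR or limma-voom, with a median of −0.10. Lower values in every p27OE library were seen for 6 of the 13 and higher ones for 1, against 16.5% and 16.8% of all genes. DESeq2 called 1 of the 13 (16.6% of all genes), and 7 had an unadjusted edgeR p under 0.05 (26.0% of all genes). In the Y-adjusted model 2 rose and 5 fell, where 18.0% of all genes rose and 16.0% fell. E2f8, a repressive E2F, was at −0.86 ± 0.22 (edgeR adjusted p = 0.0743), and Rb1, which encodes the retinoblastoma protein, at 0.40 ± 0.13 (adjusted p = 0.125). Of 12 proliferation markers, 0 passed with edgeR or limma-voom, and the median was −0.78. DESeq2 called all 12 lower, where it called 8.41% of all genes lower. All 12 had an unadjusted edgeR p under 0.05, as did 26.0% of all genes, and all 12 had lower values in every p27OE library, as did 16.5% of all genes. Mcm3, a subunit of the replicative helicase, had 76.2, 74.9 and 58.1 CPM in p27OE against 95.7, 115 and 116 CPM in EV control (log2 fold change −0.64 ± 0.13; edgeR adjusted p = 0.0564). Of these 12 genes, 11 fell in the Y-adjusted model, where 16.0% of all genes fell. The p27OE library with the lowest summed level of these markers, at 686 CPM, was p27OE 3, which had the most Cdkn1b and the least Cdkn2c and Cdkn2d. The other p27OE libraries had 956 and 1041 CPM, and EV control had between 1325 and 1644 CPM. The part of proliferation in the inhibitor values was not tested.

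The next 24 genes are known to act on the Cdkn2a and Cdkn2b locus. They are chiefly polycomb proteins that silence it and factors that activate or repress its starts. With edgeR 0 of them rose and 1 fell (1.77% and 0.843% of all genes), and limma-voom also called 1 (418 of all 13990 genes). DESeq2 called 7 of the 24 (16.6% of all genes), and 10 had an unadjusted edgeR p under 0.05 (26.0% of all genes). Of the 24, 4 rose and 6 fell in the Y-adjusted model, where 18.0% of all genes rose and 16.0% fell. Lower values in every p27OE library were seen for 7 of the 24 and higher ones for 3, against 16.5% and 16.8% of all genes. The gene that fell with edgeR was Ets2, a transcription factor known from human cells to activate p16, at 25.9, 26.8 and 24.5 CPM in p27OE against 62.5, 50.6 and 49.0 CPM in EV control (log2 fold change −1.07 ± 0.11, SE; edgeR adjusted p = 0.0280). This call was lost without any 1 of p27OE 1, 2 or 3 or EV control 2 or 3, where 0 of the 24 genes passed. The median of the list was −0.05. The polycomb gene Bmi1, a repressor of the locus, had 39.9, 39.6 and 37.4 CPM in p27OE against 45.2, 47.8 and 46.1 CPM in EV control (edgeR adjusted p = 0.0775). Of 16 regulators of Cdkn1a transcription and p53 feedback genes, 0 passed with edgeR or limma-voom, with a median of 0.02. DESeq2 called 5 of the 16 (16.6% of all genes), and 5 had an unadjusted edgeR p under 0.05 (26.0% of all genes). Of the 16, 4 rose and 3 fell in the Y-adjusted model, where 18.0% of all genes rose and 16.0% fell. Klf4, a factor that activates Cdkn1a, was at 128 ± 30.005 CPM in p27OE and 66.3 ± 16.7 CPM in EV control (SD, n = 3 each; log2 fold change 0.95 ± 0.23, SE; edgeR adjusted p = 0.0719), and Zmat3, a p53 target, at 0.33 ± 0.08 (adjusted p = 0.0765). Of the 16, 9 had a log2 fold change above 0 and 7 below. Among the latter was Trp53, the gene of p53, at −0.27 ± 0.08 (SE; edgeR adjusted p = 0.0885). Among the former were Mdm2 at 0.71 ± 0.21 (edgeR adjusted p = 0.0997) and Ccng1 at 0.64 ± 0.22 (adjusted p = 0.134). Their Y-adjusted estimates were 0.78 and 0.73 (edgeR adjusted p = 0.000336 for each). Of the 16, 5 had higher values in every p27OE library and 1 had lower ones, against 16.8% and 16.5% of all genes. Bmi1 was chosen after its values were seen, as were Trp53, Mdm2, Ccng1, Ccna2, Cdk4, Cdk2, Cdk6, Mest, Igf2, H19, Dcn and Lum. So were Krt19, Tek, Vim, Epcam, Pecam1, Cd14, Des, Acta1, Ckm, Myod1 and Myog.

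Of 17 genes that act on p27, through transcription or protein turnover, 0 passed with edgeR or limma-voom, with a median of 0.03. DESeq2 called 2 of the 17 (16.6% of all genes), and 4 had an unadjusted edgeR p under 0.05 (26.0% of all genes). Of the 17, 3 rose and 2 fell in the Y-adjusted model, where 18.0% of all genes rose and 16.0% fell. Cks1b, the cofactor with which the ubiquitin ligase subunit Skp2 recognises p27, had 59.1, 55.8 and 50.8 CPM in p27OE against 70.4, 96.2 and 98.5 CPM in EV control (log2 fold change −0.68 ± 0.14, SE; edgeR adjusted p = 0.0582). Cks2, its close relative, was at −0.80 ± 0.20 (edgeR adjusted p = 0.0748). All p27OE libraries lay below all EV control libraries for both. This held for 4 of the 17 genes and for 16.5% of all genes tested. Another 2 of the 17 were higher in every p27OE library, as were 16.8% of all genes.

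**Figure D5:**
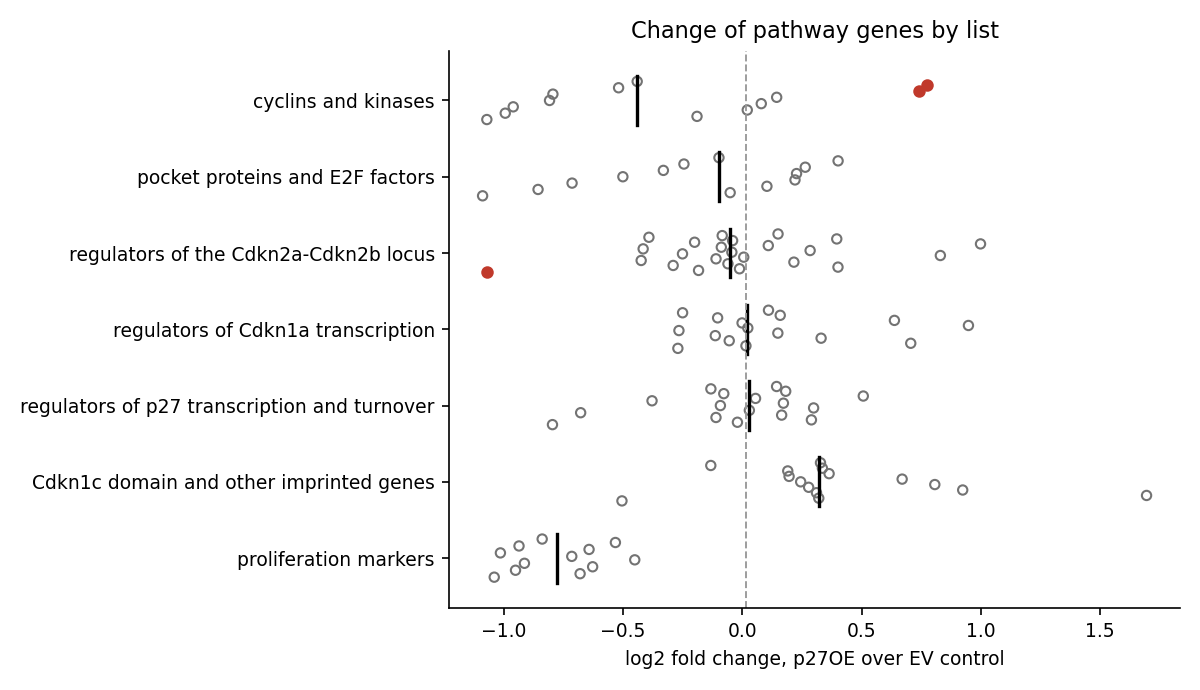
Log2 fold change, p27OE over EV control, of the tested genes of 7 lists around the inhibitors. Each circle is a gene, filled red circles passed at an adjusted p under 0.05 (Ccnd1, Ccnd2 and Ets2), the black line is the list median and the dashed line the median of all 13990 genes tested.

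The genes whose log2 CPM followed each inhibitor most closely over the 6 libraries were picked by Pearson's r among 10366 genes, as a description with no test. Cdkn1b was followed by Myo1e and Ficd (r = 0.998 for each), and 793 of these genes had r above 0.9 with it. Cdkn1a was followed by Eda2r, Ptplad1 and Crip2 (r = 0.999, 0.997 and 0.995), Cdkn2a by Usp30 (0.999) and Cdkn2b by Prr13 (0.999). Cdkn2d was followed by Fanci, Mtfr2 and Tmem109 (0.999, 0.997 and 0.997) and Cdkn2c by Nelfa (0.997). Cdkn1c, whose pattern followed the libraries numbered 1, was matched by Itih5, Gprasp1 and Slc12a2 (0.998, 0.995 and 0.994). Each of the 7 genes had between 359 and 878 genes with r above 0.9, and all these values rest on the same 6 libraries, with their shared depth and Y-linked level.

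Macrophage markers, 14 genes with a summed level of 21.3 to 38.7 CPM in p27OE, lay between 19.5 and 107 CPM in EV control. EV control 1 had the highest sum and also the lowest Cdkn1a, and the other EV control libraries were at 25.6 and 19.5 CPM. No macrophage marker was at 0 in every library, and Cd14 was at 2.13 ± 0.26 CPM in p27OE and 3.39 ± 0.53 CPM in EV control (SD, n = 3 each). Skeletal muscle markers summed to 78.2, 152 and 312 CPM in p27OE and 39.3, 124 and 117 CPM in EV control, nearly all from Des and Acta1, while Ckm was at 0 in every library and Myod1 and Myog were at most 0.0961 CPM. Their part in the inhibitor values was not tested.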

How the data were processed

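RNA of 6 samples was sequenced, 3 p27OE and 3 EV control, grouped by their titles. The authors deposited a table of raw read counts, with 1 row per gene symbol. Per the submitters' processing notes the genome was mm10 and the software featureCounts 1.4.6 from Subread, Bowtie2 2.2.6 and TopHat2 2.0.14. The annotation and strand setting are not given in the sources used here. No 2 libraries of a group agreed within sampling noise (chi-square per gene 6.27 to 178).

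Genes were filtered with filterByExpr, which kept 99.976% of counts, and normalised with TMM. The test was edgeR 4.0.16 in R 4.3.3 (quasi-likelihood, two-sided, Benjamini-Hochberg adjustment over all genes tested, threshold 0.05). The same design was tested on simulated data. Samples of a group are not stated to be separate cultures, so p-values measure the spread between these samples. That spread may be technical in part, and it includes the differences in Y-linked and Xist levels. A prior count of 2 was used for log2 CPM. Exon lengths, neighbours and overlaps come from GENCODE M21 (GRCm38, the assembly of mm10), and stretches shared between genes were searched at 50 bases. Named genes were the 7 inhibitors, of each list the called genes (at most 3) or otherwise the 2 with the smallest p, the nearest tested neighbours and the genes most alike in pattern, apart from those stated; not every gene the rule names is reported here. The members, lists, motifs and alternatives were chosen with earlier results of these data known. The alternatives were RLE and total-count scaling, 2 other filters, DESeq2 1.42.0, limma-voom (limma 3.58.1), the replicate number as a block, a Y-linked covariate, and libraries left out.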

Additional observations from a re-analysis of the deposited data

How the results depend on the processing

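Cdkn1b kept its direction in all 15 alternatives. It kept its call in those with all 6 libraries, without EV control 1 and without both libraries numbered 1. Over the fits that left out 1 library each, its log2 fold change lay between 2.48 and 2.97, that of Cdkn1a between 0.53 and 0.77, of Cdkn2a between 0.32 and 0.43, of Cdkn2b between 0.47 and 0.68, of Cdkn2c between −0.96 and −0.19, of Cdkn2d between −0.80 and −0.46 and of Cdkn1c between −0.82 and 0.99. Only Cdkn1c changed sign among the 7 genes, and without leaving out single libraries it was above 0 with limma-voom (0.17), the replicate block (0.065) and without both libraries numbered 1 (0.21). Genes that did not pass in the model with the group alone passed in these alternatives. Cdkn1a, Cdkn2a, Cdkn2b and Cdkn2d passed with DESeq2 (0.69, 0.38, 0.59 and −0.62), the replicate block (0.70, 0.39, 0.59 and −0.64), the Y-adjusted model (0.76, 0.40, 0.61 and −0.66) and without both libraries numbered 1 (0.60, 0.43, 0.70 and −0.88). Cdkn2a and Cdkn2b passed with total counts (0.39 and 0.59), which called 313 of 13990 genes. Cdkn2b passed with the stricter filter (0.60), which called 497 of 12305 genes. The 365 genes called became 2321 with DESeq2, 2410 with the replicate block, 4761 in the Y-adjusted model and 2334 without both libraries numbered 1, and 1 to 1827 with 1 library left out. Of the 110 tested genes of the 7 lists, 3 were called, and 5 with the stricter filter, 36 with DESeq2, 38 with the replicate block, 54 in the Y-adjusted model, 44 without both libraries numbered 1 and 0 to 33 with 1 library left out. The cause was not tested. The deviations of libraries 1, 2 and 3 from their group means correlated across genes at 0.669, 0.043 and 0.495 with the library of equal number, and EV control 2 correlated best with p27OE 3 (0.555). EV control 2 and 3 were the closest pair within a group (chi-square per gene 6.27), so their correlations can hardly be told apart. Whether the replicate numbers pair the libraries is thus not settled. With the longest coding transcript as the length, the level per kilobase was 272 in p27OE and 168 in EV control for Cdkn1a and 108 in p27OE and 82.4 in EV control for Cdkn2a. It was 5.18 for Cdkn2c and 16.8 for Cdkn2d in EV control, and the order of the 7 genes was the same. Counting error was not separated from the spread between libraries, and in relative terms it weighs most for Cdkn2c in p27OE 3, which has the smallest count (183).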
